A study of Arabidopsis thaliana with 9 samples.

Results

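The genes described here are 35 probe sets of the Arabidopsis ATH1 array that were low in CAB3::pBVR2 seedlings while 35S::pBVR3 seedlings lay close to wild type, out of 22746 probe sets in all. They were selected on the array values themselves. After a shift of every array's log2 signals to a common 75th percentile, a probe set was taken when its mean No-0 WT signal was at least 100, its mean log2 difference CAB3::pBVR2 minus No-0 WT was -1.5 or lower, its difference 35S::pBVR3 minus No-0 WT lay between -0.35 and 0.35, and all CAB3::pBVR2 arrays were below all arrays of both other lines. Probe sets named as genes of the plastid genome were left out, and 4 members without a gene name could not be checked for this. Since both contrasts against No-0 WT chose the members, their differences between the lines are a description and carry no test.

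The 3 lines were measured on 3 arrays each, with 1 array per RNA extraction. CAB3::pBVR2 carries a plastid-targeted biliverdin reductase behind the CAB3 promoter, which is active in mesophyll cells. 35S::pBVR3 carries it behind the constitutive 35S promoter, and No-0 WT is the untransformed parental accession. All seeds had been given a pulse of red light and a cold treatment in darkness, and all seedlings were 7 days old, grown in continuous far-red (FRc) light and harvested whole and pooled by weight. Each BVR line is 1 transgenic line, so that an effect of its insertion cannot be told apart from that of its promoter. The level of the reductase was not analysed here.

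Biliverdin reductase destroys the bilin chromophore that phytochromes need to sense light, and a cell that holds enough of it in its plastids is left without active phytochrome. Phytochrome A is the photoreceptor that acts in FRc light, where it switches on the nuclear genes of the chloroplast, of chlorophyll formation and of carbon metabolism. Mesophyll cells are the main photosynthetic tissue of the cotyledons. There, triose phosphates leave the chloroplast and are turned in the cytosol into sucrose for export, a route in which several of the genes below act.

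The members were set beside the probe sets that were as low in CAB3::pBVR2 with any value in 35S::pBVR3. Both differences are taken from the same 3 No-0 WT arrays, so that the error of those arrays enters both in the same direction. Of 716 probe sets that met all other parts of the rule whatever their 35S::pBVR3 value, 680 were more than 0.35 below No-0 WT in 35S::pBVR3, 1 was more than 0.35 above it, and the 35 members made up 4.89%. Over the 716 probe sets the median difference 35S::pBVR3 minus No-0 WT was -0.81 and its 95th percentile was -0.35, so the members were the upper end of 1 continuous distribution with no gap at the limit. Between -0.70 and -0.35 there were 200 probe sets, between -0.35 and 0 there were 32, and between 0 and 0.35 there were 3. Over all 15436 probe sets that passed a filter on low signal, the median difference was 0.02 for CAB3::pBVR2 and -0.03 for 35S::pBVR3, each minus No-0 WT. All 35 members passed that filter.

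**Figure D1:**
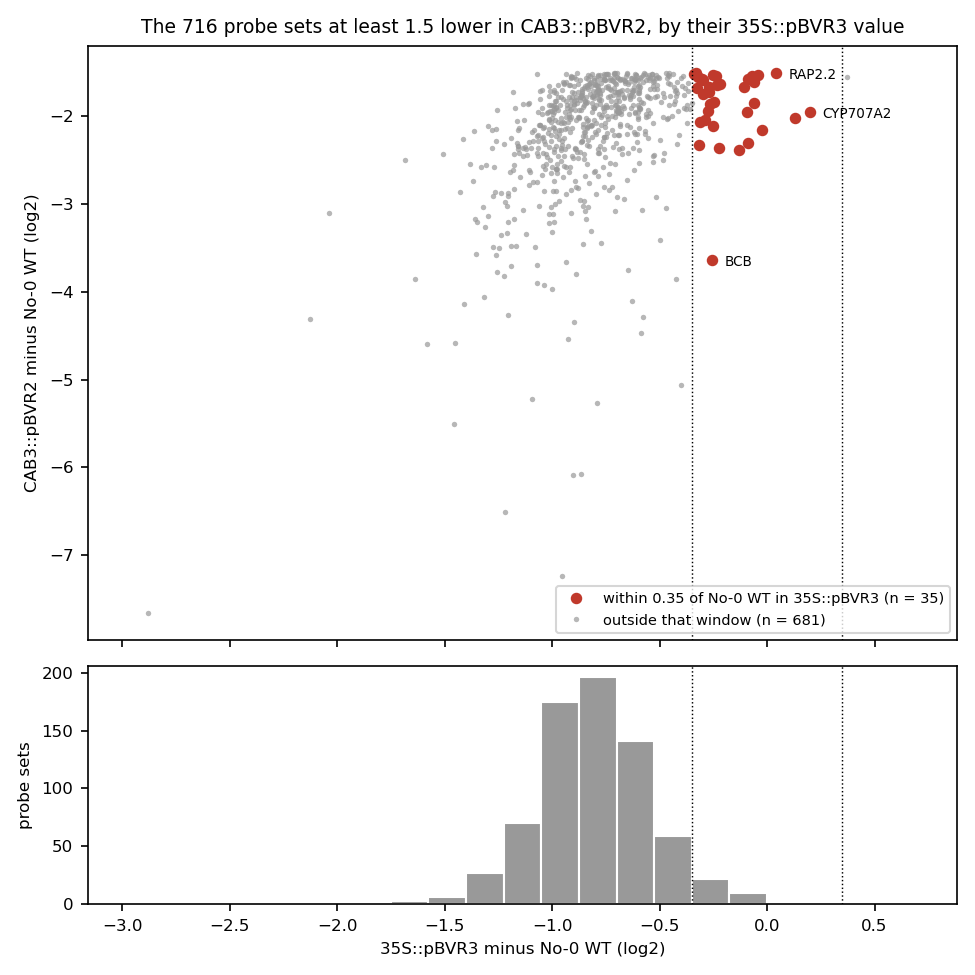
The upper panel plots the log2 difference CAB3::pBVR2 minus No-0 WT against the difference 35S::pBVR3 minus No-0 WT for the 716 probe sets that were at least 1.5 lower in CAB3::pBVR2, with the 35 members in red and dotted lines at -0.35 and 0.35. The lower panel counts the same 716 probe sets along the same axis, and the members form its upper tail.

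Among the members, the difference CAB3::pBVR2 minus No-0 WT ran from -3.63 to -1.5 with a median of -1.72, which is a signal 3.29-fold lower at the median. It was 4-fold or more in 10 members and smaller in 25. CAB3::pBVR2 was also 2.25-fold to 10.4-fold lower than 35S::pBVR3. The members covered a wide range of signals, with the No-0 WT mean between 106.0 in AT1G78450 and 20411 in the CAB probe set. In bulk RNA of whole seedlings, fewer cells of a type and less RNA per cell cannot be told apart.

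The members are not shown to be unchanged in 35S::pBVR3. Their difference 35S::pBVR3 minus No-0 WT was below 0 in 32 of 35 members, with a median of -0.25 and a range from -0.34 to 0.20, and it was -0.20 or lower in 22. The 35S::pBVR3 arrays overlapped the No-0 WT arrays in 31 members and all lay below them in 4, namely SWEET2, BBX14, AT3G51510 and a probe set without a gene name. The standard error of this difference was 0.239 at the median. Its 95% interval held 0 in all 35, to which the selection contributes, but in 30 of 35 it also reached below a 1.5-fold reduction. PIFI, GASA1, AT5G02160, RAP2.2 and CYP707A2 had the 5 intervals that did not. None of these counts was taken over all probe sets that passed the filter, so they have no background beside them.

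The rule was then applied to the arrays of 2 replicate numbers of each line and read in the arrays of the remaining number, which had no part in the choice. It chose 32, 53 and 40 probe sets when number 1, 2 or 3 was held out, 125 choices in all. Of these, 17, 27 and 20 were members. The 125 choices overlap and count a probe set anew each time it was chosen. The low level in CAB3::pBVR2 was seen again in most of them, since 118 of the 125 were below both other lines in the held-out arrays, and 84, or 67.2%, were again at -1.5 or lower. The median held-out difference CAB3::pBVR2 minus No-0 WT was -1.89, -1.77 and -1.66. Of the nearness of 35S::pBVR3 to No-0 WT less was seen again, as 48 of 125, or 38.4%, were within 0.35 in the held-out arrays, 68 lay below that window and 9 above it. Both conditions were met by 27 of 125, or 21.6%. Over all kept probe sets the corresponding medians ran from -0.05 to 0.09 for CAB3::pBVR2 and from -0.08 to 0.02 for 35S::pBVR3. The shares of all kept probe sets that met these limits in the held-out arrays were not counted, so the held-out shares have no background beside them. Each held-out difference also rests on 1 array per line, against 2 in the choice.

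**Figure D2:**
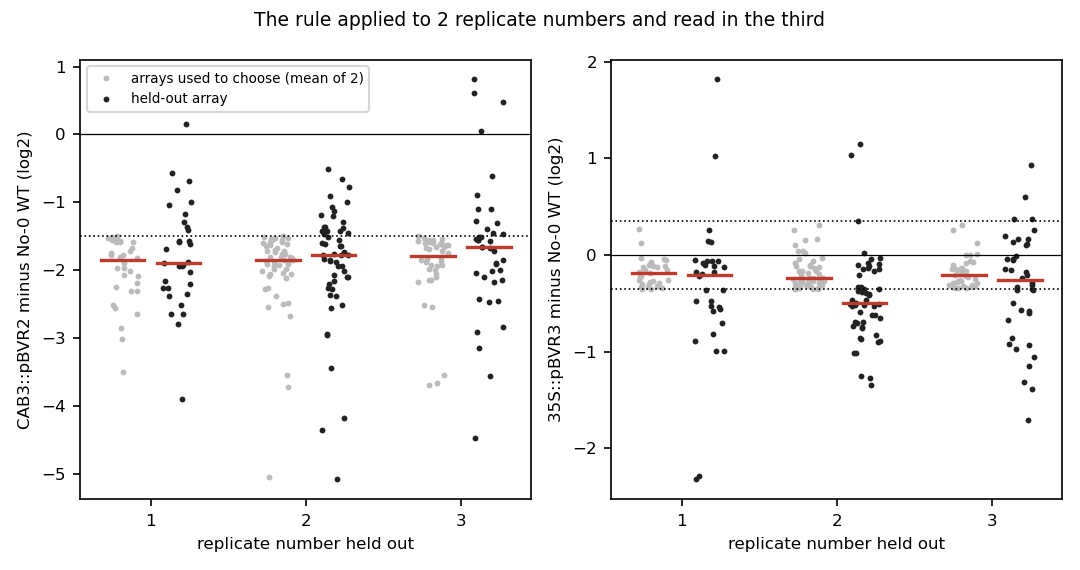
Each point is a probe set chosen with 1 replicate number held out, with its log2 difference in the arrays that chose it in grey and in the held-out arrays in black, for CAB3::pBVR2 (left) and 35S::pBVR3 (right) against No-0 WT. Red bars are medians and dotted lines the limits of the rule; 84 of 125 held-out values on the left are at -1.5 or lower, and 48 of 125 on the right are within 0.35.

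BCB was the member with the lowest CAB3::pBVR2 value relative to No-0 WT. It encodes a blue copper-binding protein of the phytocyanin family, small electron-carrying proteins at the cell surface. Its signal was 949, 1159.5 and 1503 in CAB3::pBVR2, 13079, 11361 and 12503 in 35S::pBVR3, and 14189.7, 12560.4 and 17688 in No-0 WT. All 3 CAB3::pBVR2 arrays were far under the other 6, which overlapped between 35S::pBVR3 and No-0 WT. BCB was 12.4-fold lower in CAB3::pBVR2 than in No-0 WT, with a difference of -0.25 (SE 0.204) for 35S::pBVR3 minus No-0 WT. No other member was more than 5.21-fold lower.

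AT3G62550, a member of the universal stress protein family, came next. Its signal was 286, 651 and 321 in CAB3::pBVR2, 1451, 1995 and 2227 in 35S::pBVR3, and 1637, 2242 and 2307 in No-0 WT, a 5.21-fold lower level in CAB3::pBVR2 than in No-0 WT. The highest CAB3::pBVR2 array was well under the lowest array of either other line. AT3G22750, annotated as a protein kinase, had a signal of 69.2, 29.9 and 31.9 in CAB3::pBVR2, 116, 161 and 231 in 35S::pBVR3, and 127, 233 and 282 in No-0 WT. Here the 35S::pBVR3 and No-0 WT arrays were themselves spread over about the same wide range, and the difference 35S::pBVR3 minus No-0 WT of -0.32 had a standard error of 0.411.

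**Figure D3:**
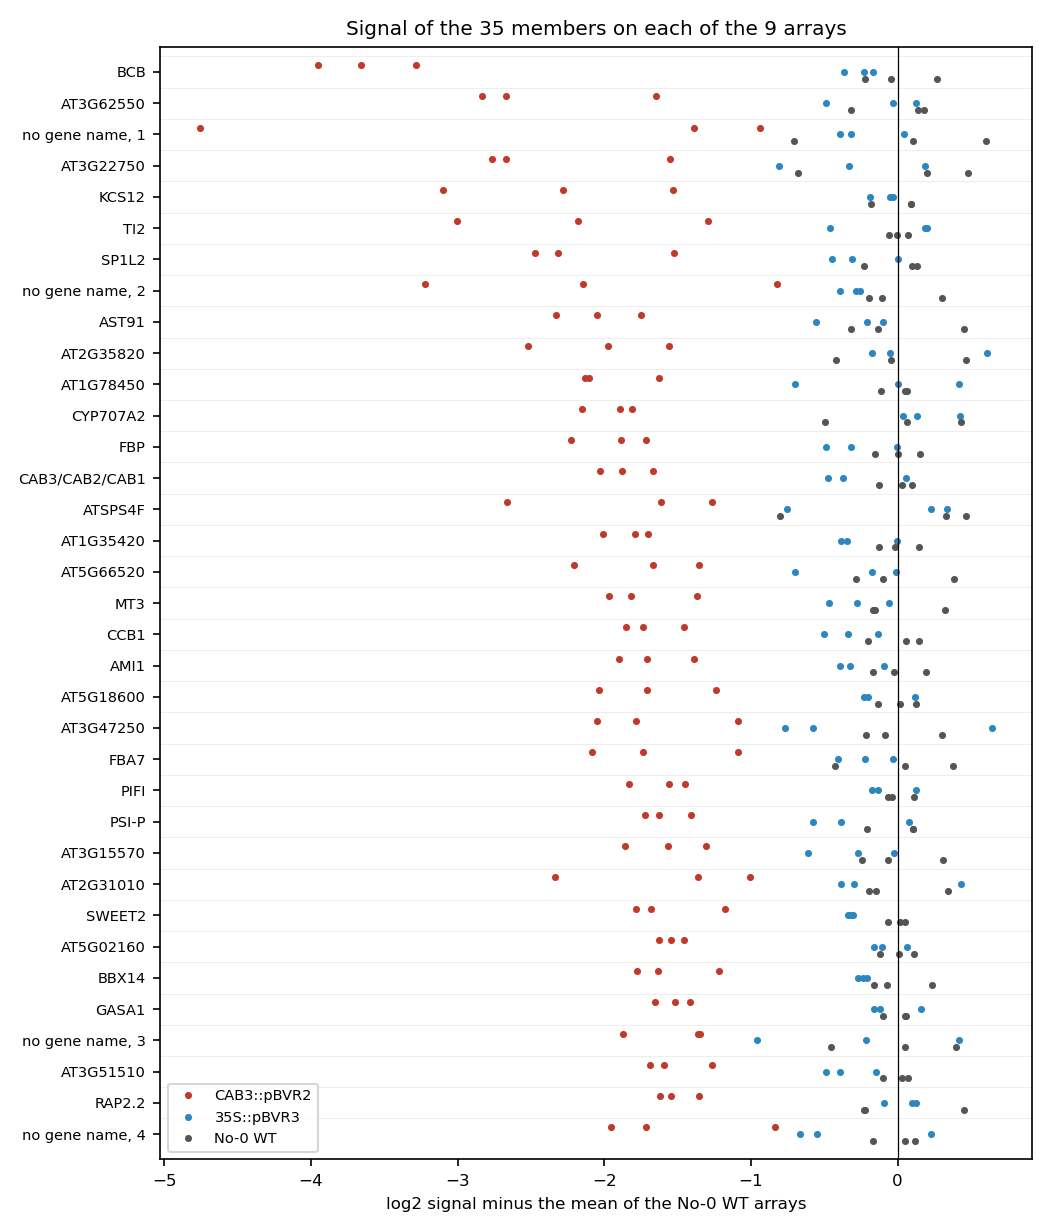
Each row is a member, ordered by its CAB3::pBVR2 value, and each point is an array, plotted as log2 signal minus the mean of the 3 No-0 WT arrays. The CAB3::pBVR2 points lie to the left of all others in every row, as the rule requires. The 35S::pBVR3 and No-0 WT points overlap in 31 of 35 rows, which the window of the rule favours.

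On the way between triose phosphate and sucrose or in sugar transport stood 4 members. FBP, the cytosolic fructose-1,6-bisphosphatase that commits triose phosphate to sucrose formation, had a signal of 944, 1200.1 and 1350.2 in CAB3::pBVR2, 3546, 3148 and 4410.4 in 35S::pBVR3, and 4915, 3974 and 4441 in No-0 WT. It was 3.84-fold lower in CAB3::pBVR2 than in No-0 WT, and the 35S::pBVR3 arrays reached into the No-0 WT range with 1 of 3 arrays. FBA7, an aldolase annotated as cytosolic, makes the substrate of that enzyme. It had 42.2, 84.1 and 53.6 in CAB3::pBVR2, 153, 134 and 175 in 35S::pBVR3, and 185, 133 and 232 in No-0 WT, a dim probe set with 1 CAB3::pBVR2 array not above the array background.

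ATSPS4F, a sucrose-phosphate synthase, carries out the step that follows. Its signal was 91.5, 34.7 and 71.7 in CAB3::pBVR2, 257, 130.4 and 278 in 35S::pBVR3, and 276, 304 and 126 in No-0 WT. Replicate 2 of 35S::pBVR3 and replicate 3 of No-0 WT lay far under the other arrays of their line, and the gap to the highest CAB3::pBVR2 array was small. SWEET2 belongs to the SWEET family of sugar transporters and had 857, 1215 and 797 in CAB3::pBVR2, 2227, 2175 and 2188 in 35S::pBVR3, and 2622, 2774 and 2842 in No-0 WT. Its 3 lines did not overlap at all, so that 35S::pBVR3 stood between them, with a difference of -0.32 (SE 0.175) to No-0 WT. FBP, FBA7, ATSPS4F and SWEET2 were 2.92-fold to 3.84-fold lower in CAB3::pBVR2 than in No-0 WT.

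Another 4 members act in the chloroplast's light reactions or in its membranes. A probe set shared by CAB1, CAB2 and CAB3, near-identical genes of the light-harvesting chlorophyll a/b proteins of photosystem II, had 5535, 6414 and 5002 in CAB3::pBVR2, 21209, 15719 and 14624 in 35S::pBVR3, and 20819, 21748 and 18665 in No-0 WT. Its signal was 3.62-fold lower in CAB3::pBVR2 than in No-0 WT. The 3 genes cannot be told apart on this probe set, and 1 of them is the gene whose promoter drives the transgene in CAB3::pBVR2. The related probe set shared by LHB1B1 and LHB1B2, of the same light-harvesting family, averaged 7900.4 in CAB3::pBVR2, 16264 in 35S::pBVR3 and 21236 on No-0 WT arrays and lay outside the window, with a difference of -0.41 for 35S::pBVR3.

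PSI-P, also known as CURT1B, is one of the proteins that bend thylakoid membranes at the margins of the grana. Its signal was 2973, 3459 and 2781 in CAB3::pBVR2, 9654, 7006 and 6156 in 35S::pBVR3, and 9856, 9856 and 7941 in No-0 WT. As for the CAB probe set, the 35S::pBVR3 array of replicate 1 was at the No-0 WT level and replicates 2 and 3 were under it. PIFI, a chloroplast protein of the NDH-dependent electron route, averaged 1171 ± 156 in CAB3::pBVR2, 3429.8 ± 400.4 in 35S::pBVR3 and 3565 ± 241 on No-0 WT arrays (SD, n = 3 each). CCB1, needed to attach heme to cytochrome b6, averaged 1295 ± 189 in CAB3::pBVR2, 3311 ± 426 in 35S::pBVR3 and 4149 ± 512 on No-0 WT arrays (SD, n = 3 each). These 4 were 3.00-fold to 3.62-fold lower in CAB3::pBVR2 than in No-0 WT.

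**Figure D4:**
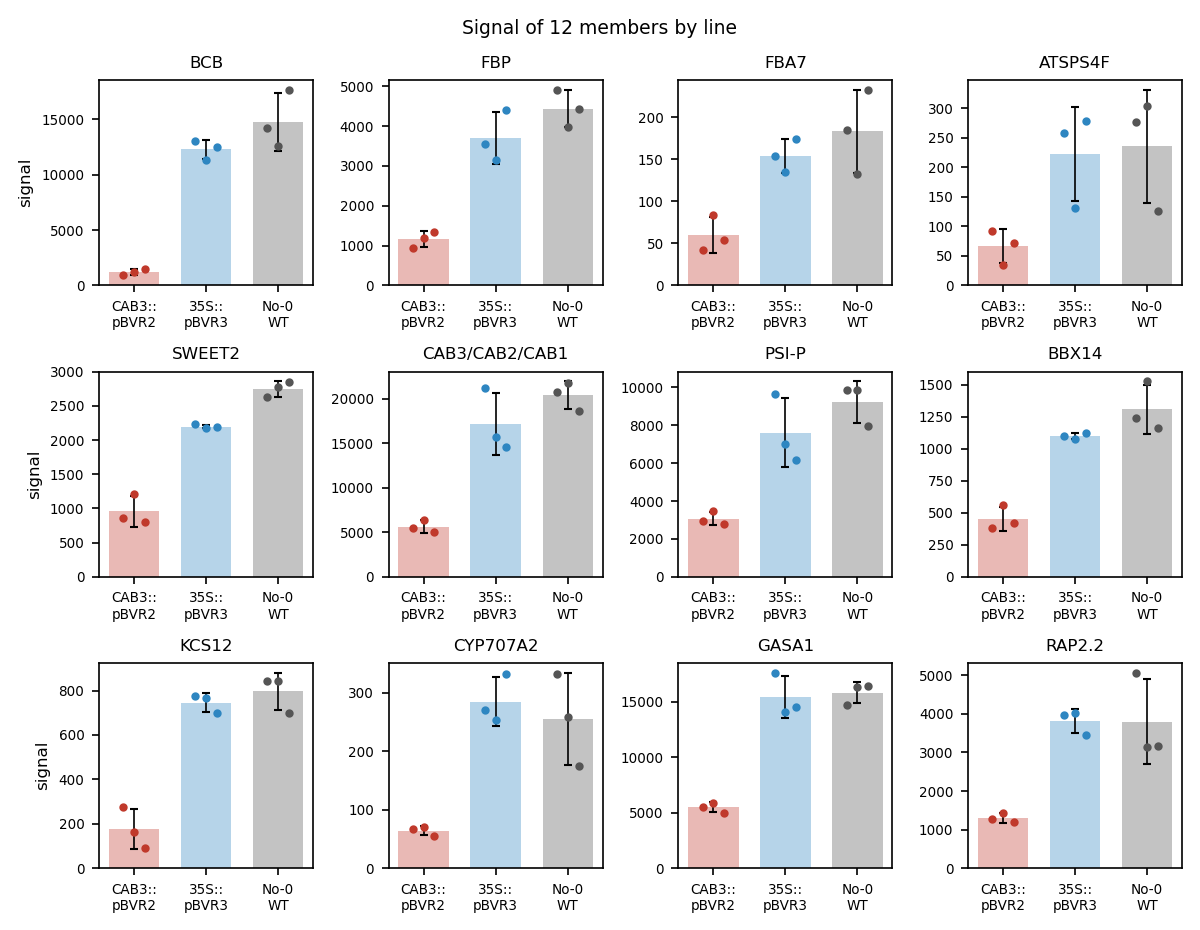
Bars are the mean signal of 12 members in each line, error bars the SD over 3 arrays and points the arrays, on linear axes that start at 0. For BCB the CAB3::pBVR2 bar stands at 1204, the 35S::pBVR3 bar at 12314 and the No-0 WT bar at 14812, and for SWEET2 the 3 lines do not overlap.

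Regulation, hormone metabolism and hormone response took 7 members. BBX14, a B-box zinc finger protein of a family with many light-signalling factors, had 379.5, 558 and 418 in CAB3::pBVR2, 1102, 1075 and 1124 in 35S::pBVR3, and 1236, 1526 and 1158 in No-0 WT. All 3 of its 35S::pBVR3 arrays lay just under the lowest No-0 WT array. RAP2.2, an ethylene response factor of the group that acts in low oxygen, averaged 1304 ± 126 in CAB3::pBVR2, 3814 ± 307 in 35S::pBVR3 and 3791 ± 1101 on No-0 WT arrays (SD, n = 3 each). GASA1, a small gibberellin-regulated peptide, averaged 5481 ± 451 in CAB3::pBVR2, 15409.7 ± 1909 in 35S::pBVR3 and 15799 ± 943 on No-0 WT arrays (SD, n = 3 each). In GASA1 and RAP2.2 the 35S::pBVR3 and No-0 WT means were within 0.05 of each other on the log2 scale.

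CYP707A2, an abscisic acid 8'-hydroxylase that breaks this hormone down, was the member with the highest 35S::pBVR3 value relative to No-0 WT. It averaged 64.1 ± 7.74 in CAB3::pBVR2, 285 ± 41.4 in 35S::pBVR3 and 255 ± 79.1 on No-0 WT arrays (SD, n = 3 each), so that the difference of 0.20 (SE 0.239) was within the spread of the arrays. AMI1, an amidase that can form the auxin indole-3-acetic acid from indole-3-acetamide, averaged 1481 ± 270.4 in CAB3::pBVR2, 3859 ± 426 in 35S::pBVR3 and 4666 ± 589.8 on No-0 WT arrays (SD, n = 3 each). AT3G15570, of the NPH3 family of phototropism proteins, averaged 137 ± 25.8 in CAB3::pBVR2, 332 ± 66.0 in 35S::pBVR3 and 409 ± 81.7 on No-0 WT arrays (SD, n = 3 each). The remaining one is the kinase AT3G22750 described above.

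BCB and AT3G62550 belong to 7 members with cell surface, stress, metal or transport functions. KCS12, a ketoacyl-CoA synthase of the family that elongates fatty acids for waxes and other lipids, had 275, 163 and 92.8 in CAB3::pBVR2, 774, 766 and 697 in 35S::pBVR3, and 845, 844 and 699.5 in No-0 WT. It was 4.93-fold lower in CAB3::pBVR2 than in No-0 WT, and the CAB3::pBVR2 arrays differed more among themselves than those of either other line. The proteinase inhibitor TI2 showed the same spread, with 255, 77.7 and 138 in CAB3::pBVR2, 719, 454 and 710.4 in 35S::pBVR3, and 655, 599 and 622 in No-0 WT. TI2 and KCS12 had differences 35S::pBVR3 minus No-0 WT of -0.02 and -0.09, with standard errors of 0.377 and 0.329.

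AST91, a sulfate transporter also called SULTR3;3, had 320.5, 260.5 and 215 in CAB3::pBVR2, 1005, 934 and 735 in 35S::pBVR3, and 1477, 984 and 866 in No-0 WT, and was 4.12-fold lower in CAB3::pBVR2 than in No-0 WT. MT3, a metallothionein, which binds metal ions, averaged 1390.1 ± 315 in CAB3::pBVR2, 3755 ± 531 in 35S::pBVR3 and 4556 ± 921 on No-0 WT arrays (SD, n = 3 each). AT5G18600, a glutaredoxin, a small protein that reduces disulfides, averaged 1237 ± 348 in CAB3::pBVR2, 3565 ± 492 in 35S::pBVR3 and 3823 ± 342 on No-0 WT arrays (SD, n = 3 each). In each of these 3 genes the 35S::pBVR3 arrays overlapped those of No-0 WT.

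SP1L2 and AT1G78450 were not above the array background in CAB3::pBVR2, so that only a bound on their change can be given. The background of an array was taken as its highest signal among 27 bacterial control probe sets, and it was 48.0, 27.1 and 30.2 on the CAB3::pBVR2 arrays. SP1L2, of the SPIRAL1 family of microtubule-associated proteins, had 47.7, 24.8 and 27.5 in CAB3::pBVR2, 111, 137 and 100.5 in 35S::pBVR3, and 117, 146 and 150.5 in No-0 WT. Counted against the background it was at least 4.04-fold lower in CAB3::pBVR2 than in No-0 WT and at least 3.39-fold lower than in 35S::pBVR3. AT1G78450, annotated as a SOUL heme-binding protein, had 34.2, 24.2 and 24.7 in CAB3::pBVR2, 106, 65.2 and 141 in 35S::pBVR3, and 111, 98.0 and 109 in No-0 WT. It was at least 3.12-fold lower in CAB3::pBVR2 than in No-0 WT and at least 2.92-fold lower than in 35S::pBVR3. In all, 7 members had at least 1 CAB3::pBVR2 array at or under background.

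Among the other named members, AT2G35820 had 320.5, 240.5 and 165 in CAB3::pBVR2, 1440.5, 839 and 913 in 35S::pBVR3, and 1305, 918 and 706 in No-0 WT. AT5G02160 was bright and steady, with means of 3028 ± 174 in CAB3::pBVR2, 8417 ± 707 in 35S::pBVR3 and 8833 ± 711 on No-0 WT arrays (SD, n = 3 each). AT1G35420, of the dienelactone hydrolase family, averaged 964 ± 103 in CAB3::pBVR2, 2907 ± 440.5 in 35S::pBVR3 and 3433 ± 328 on No-0 WT arrays (SD, n = 3 each). AT3G51510, AT3G47250 and AT5G66520, the last a pentatricopeptide repeat protein of the kind that acts on organelle RNA, were 2.86-fold, 3.12-fold and 3.35-fold lower in CAB3::pBVR2 than in No-0 WT. The gene AT2G31010 was represented by 2 probe sets that disagreed: the member had a difference CAB3::pBVR2 minus No-0 WT of -1.57 and the other -0.21, so its low level holds for 1 of its probe sets only.

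There were 4 members with no gene name in the tables used. The lowest of them had 99.1, 7.03 and 72.6 in CAB3::pBVR2, 195, 144 and 152 in 35S::pBVR3, and 204, 116 and 289 in No-0 WT, with replicate 2 of CAB3::pBVR2 far under the other arrays of its line. Another had 56.1, 26.7 and 140.5 in CAB3::pBVR2, 208, 204 and 189 in 35S::pBVR3, and 230.5, 307 and 217 in No-0 WT. Over all members the SD of log2 signal within a line was 0.315 at the median in CAB3::pBVR2, 0.230 in 35S::pBVR3 and 0.208 on No-0 WT arrays. Over all kept probe sets it was 0.248 in CAB3::pBVR2, 0.238 in 35S::pBVR3 and 0.220 on No-0 WT arrays.

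Probe sets just inside and just outside a limit had nearly the same value of the limited measure at 2 of the limits. These were the limit on CAB3::pBVR2 and the lower side of the 35S::pBVR3 window. At the upper side of the window and at the limit on signal they lay further apart. At the limit on CAB3::pBVR2, RAP2.2 and a probe set without a gene name were just inside at -1.506 and -1.5, and AT5G44580 and AT1G67700 were just outside at -1.498 and -1.492. At the lower side of the 35S::pBVR3 window, AT3G51510 at -0.34 was inside. The probe set shared by GOX1 and GOX2, glycolate oxidases of photorespiration, was outside at -0.351, with a CAB3::pBVR2 value of -1.85. At the upper side, CYP707A2 at 0.20 and AT2G35820 at 0.13 were inside, and the only probe set beyond it, shared by the soluble epoxide hydrolase gene SEH and AT2G26750, was at 0.37. At the limit on signal, AT1G78450 and AT2G31010 were inside with No-0 WT means of 106.0 and 106.1. The GH3 family gene AT5G51470 and AT4G11900 were outside with 76.9 and 76.4. Neither was above the array background on any CAB3::pBVR2 array, and against the background they were at least 2.23-fold and at least 1.995-fold lower in CAB3::pBVR2 than in No-0 WT.

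Genes outside the members that belong to the same pathways were read from 13 lists, written with earlier results of these arrays known. Of 267 genes written down, 57 outside the members had a probe set of their own name, and 48 of these passed the filter. Their contrasts were tested, but the members among the listed genes, 10 in all, were taken out. A listed gene that met all other parts of the rule stayed in only when its 35S::pBVR3 value lay outside the window. Counts of listed genes that involve 35S::pBVR3 are therefore not free of the choice. Between CAB3::pBVR2 and No-0 WT, 3112 of 15436 kept probe sets were lower and 2585 higher at an adjusted p under 0.05 (limma with Benjamini-Hochberg adjustment), which is 20.2% and 16.7%. Of 48 listed genes outside the members, 32 were lower and 7 higher in CAB3::pBVR2. In 35S::pBVR3 against No-0 WT the calls were fewer, with 817 kept probe sets lower and 656 higher, which is 5.29% and 4.25%, and 17 of the 48 listed genes were lower and 2 higher. A block on replicate number brought the lower ones to 1323 kept probe sets and 25 of the 48. The count of 817 depended on every 35S::pBVR3 and No-0 WT array: without replicate 1, 2 or 3 of 35S::pBVR3 it was 249, 314 or 218, and without replicate 1, 2 or 3 of No-0 WT it was 201, 114 or 443. CAB3::pBVR2 was lower than 35S::pBVR3 in 26 of the 48, against 6.69% of all kept probe sets. The 33 listed genes taken for naming were refitted under 13 to 15 alternatives each, and 13 of their 15 calls in 35S::pBVR3 were lost in at least 1 of them, against 4 of their 30 calls in CAB3::pBVR2. Both contrasts use the same No-0 WT arrays.

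The list of cytosolic triose phosphate and sucrose genes held 4 members and only 3 other genes with a probe set of their own name. AT2G35840, a sucrose-phosphatase, which acts directly after sucrose-phosphate synthase, was lower in both lines. It averaged 357 ± 48.4 in CAB3::pBVR2, 587 ± 65.6 in 35S::pBVR3 and 992 ± 73.8 on No-0 WT arrays, with adjusted p of 0.000165 for CAB3::pBVR2 and 0.025 for 35S::pBVR3 against No-0 WT (limma, SD, n = 3 each). The call in 35S::pBVR3 was lost in 6 of 15 alternatives. TPI, the cytosolic triose phosphate isomerase, had a difference CAB3::pBVR2 minus No-0 WT of -0.60 that did not pass (limma adjusted p = 0.0593, and 0.0202 with the replicate block). SWEET11, a sucrose exporter of the phloem, had one of 0.39 (limma adjusted p = 0.106), which passed under quantile normalization at 0.93 (adjusted p = 0.00112).

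The list of light-harvesting and thylakoid shape genes had 6 measured genes outside the members. Of these, 5 were lower in CAB3::pBVR2 than in No-0 WT and 1 was lower in 35S::pBVR3. AT4G01150, or CURT1A, a thylakoid protein of the same family as the member PSI-P, was 4.27-fold lower in CAB3::pBVR2 than in No-0 WT, and its difference for 35S::pBVR3 was -0.82 (limma adjusted p = 0.0247, not passed in 6 of 15 alternatives). AT1G52220, or CURT1C, was 2.95-fold lower in CAB3::pBVR2, with -0.63 for 35S::pBVR3 (limma adjusted p = 0.0618, and 0.0251 with the replicate block). The antenna gene LHCB4.2 was 4.00-fold lower in CAB3::pBVR2 with -0.60 for 35S::pBVR3, and LHCB4.1 had differences of -1.07 and -0.37, of which the one for 35S::pBVR3 did not pass (limma adjusted p = 0.112). The members PSI-P and CAB1, CAB2 and CAB3 had -0.30 and -0.27 for 35S::pBVR3. CURT1A, CURT1C and LHCB4.2 were as low in CAB3::pBVR2 as the rule asks, and only their 35S::pBVR3 value left them out. That they lay further from No-0 WT in 35S::pBVR3 than these members follows from the rule.

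The other chloroplast lists held no member and were measured only in part. Of 23 chlorophyll synthesis genes written down, 8 were measured. All 8 were lower in CAB3::pBVR2 than in No-0 WT and 5 in 35S::pBVR3, with median differences of -1.41 and -0.75. CHLI2, a subunit of magnesium chelatase, was 5.84-fold lower in CAB3::pBVR2, with -0.84 for 35S::pBVR3 (limma adjusted p = 0.0242, not passed in 5 of 15 alternatives). Of 34 plastid ribosome genes written down, 6 were measured. All 6 were lower in CAB3::pBVR2 and 5 in 35S::pBVR3, with medians of -1.78 and -0.60. Of 21 Calvin cycle genes written down, 3 were measured. All 3 were lower in CAB3::pBVR2 and 2 in 35S::pBVR3, with medians of -2.57 and -0.89. SBPASE, the sedoheptulose-bisphosphatase, was 6.97-fold lower in CAB3::pBVR2 than in No-0 WT, with -0.89 for 35S::pBVR3 (limma adjusted p = 0.0344). This call in 35S::pBVR3 was lost in 9 of 15 alternatives, over which the adjusted p of SBPASE ran from 0.0137 to 0.0932. Over all kept probe sets the medians were 0.02 for CAB3::pBVR2 and -0.03 for 35S::pBVR3.

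In photorespiration, 5 of 24 genes written down were measured, and 4 of the 5 were lower and 1 higher in CAB3::pBVR2 than in No-0 WT. HPR, the hydroxypyruvate reductase of peroxisomes, was 4.22-fold lower in CAB3::pBVR2 with -0.53 for 35S::pBVR3 (limma adjusted p = 0.0701, and 0.0472 with the replicate block). LrgB, or PLGG1, which carries glycolate and glycerate across the chloroplast envelope, was 4.64-fold lower in CAB3::pBVR2 with -1.07 for 35S::pBVR3 (limma adjusted p = 0.0366, not passed in 7 of 15 alternatives). AT1G80380, the glycerate kinase, was 1.46-fold lower in CAB3::pBVR2 with 0.10 for 35S::pBVR3, and the call in CAB3::pBVR2 (limma adjusted p = 0.0341) was lost in 6 of 15 alternatives, among them quantile normalization with 0.677. Of the stomatal lineage, STOMAGEN, a peptide from mesophyll that promotes stomata, was 4.51-fold lower in CAB3::pBVR2 and FMA, a guard cell factor, 3.47-fold lower, with -0.92 and -1.12 for 35S::pBVR3 (limma adjusted p = 0.0467 and 0.0774, the second 0.0232 with the replicate block). The call of STOMAGEN in 35S::pBVR3 was lost in 10 of 15 alternatives, over which its adjusted p ran from 0.022 to 0.133.

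The auxin list and the list of CYP71B cytochromes P450 went both ways, with 1 of 5 genes lower and 2 higher, and 2 of 9 lower and 3 higher, in CAB3::pBVR2 than in No-0 WT. AT5G51470, of the GH3 family that joins amino acids to auxin and related acids, was not above background on any CAB3::pBVR2 array. It was at least 2.23-fold lower there than in No-0 WT. Its call as lower (limma adjusted p = 0.00261) rests on the signals under background and does not test this bound. For 35S::pBVR3 it had -0.21 (limma adjusted p = 0.865), and its low No-0 WT signal left it outside the members. CYP71B26 was 2.56-fold lower in CAB3::pBVR2 than in No-0 WT with -0.24 for 35S::pBVR3. CYP71B4 was not among these counts, since the platform table does not name its probe set, and it was not tested. It averaged 66.3 in CAB3::pBVR2, 676 in 35S::pBVR3 and 882.5 on No-0 WT arrays. Its differences were -3.86 for CAB3::pBVR2, lower than in any member, and -0.42 for 35S::pBVR3, outside the window. FHL, which helps bring phytochrome A into the nucleus, was higher in both lines, by 1.66 in CAB3::pBVR2 and 1.27 in 35S::pBVR3 on the log2 scale, the second not passed in 5 of 15 alternatives. For the light-linked transcription factors, trichome and wax lists, no gene outside the members passed the filter under a name of the platform table.

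**Figure D5:**
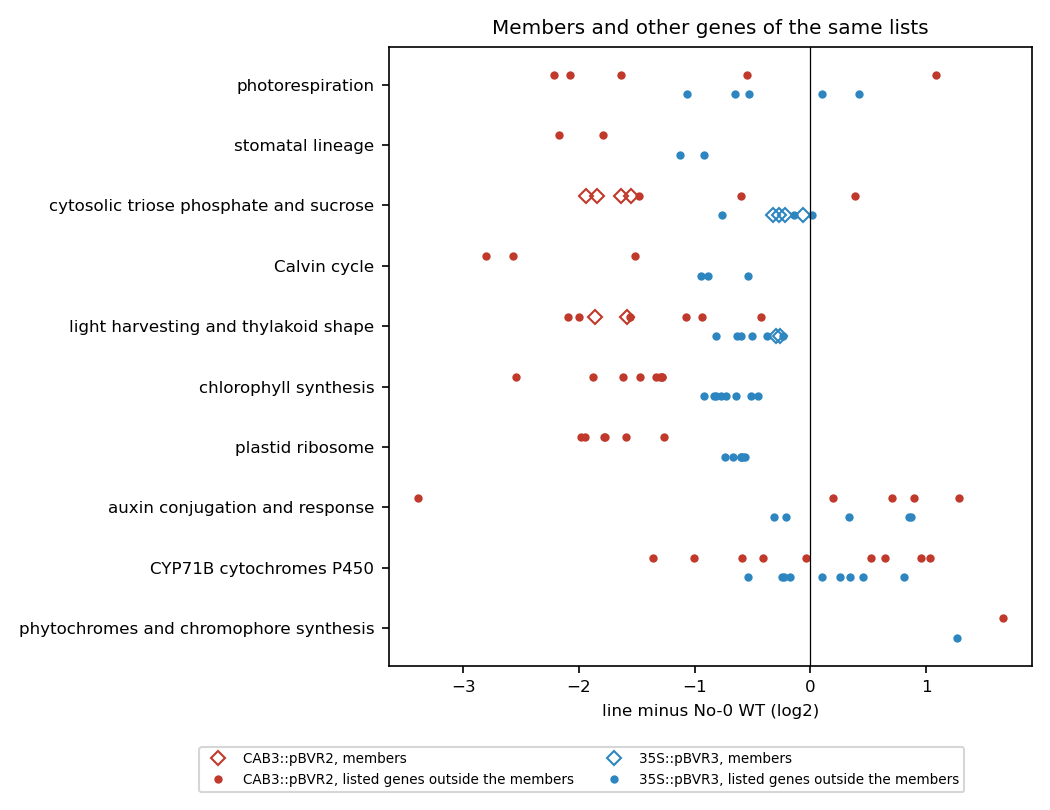
Each row is a gene list and each point a gene, with its log2 difference to No-0 WT in CAB3::pBVR2 (red, upper) and 35S::pBVR3 (blue, lower); open diamonds are members and filled circles the 48 other listed genes that passed the filter. All 8 measured chlorophyll synthesis genes and all 6 measured plastid ribosome genes lie left of 0 in both lines, with medians of -0.75 and -0.60 in 35S::pBVR3.

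Close relatives of members went different ways, some missing only a limit of the rule and others far from it. They are given as values without a test. FBA5, the aldolase gene next to FBA7 on the chromosome, had 37.0, 48.5 and 34.4 in CAB3::pBVR2, 1312, 899 and 851 in 35S::pBVR3, and 1681, 1643 and 835 in No-0 WT. Its difference was -5.06 for CAB3::pBVR2 and -0.40 for 35S::pBVR3, so that it lay just outside the window with a lower CAB3::pBVR2 value than any member. Among relatives of GASA1, AT2G14900 had differences of -0.46 and 0.17 for CAB3::pBVR2 and 35S::pBVR3, AT1G22690 had -4.35 and -0.90, and AT5G59845 was higher than No-0 WT in both, at 1.17 and 1.15. AT2G39540, AT2G18420 and AT2G30810 did not pass the filter on low signal, and AT2G18420, which was not above background in CAB3::pBVR2, averaged 17.2 there, 48.2 in 35S::pBVR3 and 49.5 on No-0 WT arrays. In the SPIRAL1 family, SP1L2 was the only one of 5 measured genes with a CAB3::pBVR2 difference under 0, the others lying between 0.04 and 0.40.

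The glutaredoxins of the class of AT5G18600 were split. The genes that lie together on chromosome 4, AT4G15660, AT4G15680, AT4G15690 and AT4G15700, had differences CAB3::pBVR2 minus No-0 WT between -1.76 and -1.35 and 35S::pBVR3 values between -0.63 and -0.08. AT4G15700 came closest to the member, at -1.35 and -0.08, with means of 89.5 ± 10.7 in CAB3::pBVR2, 221 ± 69.7 in 35S::pBVR3 and 228 ± 15.8 on No-0 WT arrays (SD, n = 3 each). AT3G62950 was not above background in CAB3::pBVR2 and at least 2.16-fold lower there than in No-0 WT, with 0.45 for 35S::pBVR3. For CAB3::pBVR2 and 35S::pBVR3, ROXY1 had -1.29 and -0.61, AT3G62930 had 0.48 and -0.41, AT2G47880 had 0.05 and 0.33, and ROXY2 had 1.07 and 1.41. AT1G03020, AT3G62960 and GRX480 did not pass the filter. SULTR2;1, a sulfate transporter like AST91, was at -1.33 for CAB3::pBVR2 and at 0.52 for 35S::pBVR3.

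The 31 named members were spread over all 5 chromosomes, with 9, 6, 10, 2 and 4 on chromosomes 1 to 5. Apart from the CAB genes, no members were neighbours. Of 62 protein-coding genes that lie directly beside a member, 23 were measured and passed the filter, and of these 5 were lower and 3 higher in CAB3::pBVR2 than in No-0 WT, against 20.2% and 16.7% of all kept probe sets. Their median difference was -0.12 for CAB3::pBVR2 and -0.25 for 35S::pBVR3. AT5G66530, beside AT5G66520, had a signal 2.86-fold lower in CAB3::pBVR2 than in No-0 WT and -0.75 for 35S::pBVR3.

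Cell type markers could be checked only in part, since 4 of the 31 markers written down had a probe set under their own name. The 1 measured mesophyll marker, RCA, which activates Rubisco, gave 6727 to 8360 in CAB3::pBVR2, 12791 to 19953 in 35S::pBVR3 and 20474 to 22826 on No-0 WT arrays. It was lowest in CAB3::pBVR2, and its 35S::pBVR3 arrays all lay under the No-0 WT arrays too. The 1 measured guard cell marker gave 56.7 to 141 in CAB3::pBVR2, 109 to 135 in 35S::pBVR3 and 200.3 to 362 on No-0 WT arrays. The 2 measured root hair markers summed to 103 to 235.5 in CAB3::pBVR2, 51.0 to 159.7 in 35S::pBVR3 and 86.4 to 134 on No-0 WT arrays. No epidermis, phloem, xylem, endodermis or seed storage marker was measured under its own name. The part of cell type composition in the members' values was not tested. Arrays of 1 line correlated at 0.948 to 0.968 over kept probe sets, CAB3::pBVR2 with 35S::pBVR3 at 0.914 to 0.941, CAB3::pBVR2 with No-0 WT at 0.847 to 0.862, and 35S::pBVR3 with No-0 WT at 0.925 to 0.946, so that no array stood apart from its line.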

How the data were processed

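Signals came from 9 Affymetrix ATH1 arrays, 3 per line. The intensities the authors deposited are linear MAS5 signals, as the submitters' processing notes name that tool without a version. Every array has a 2% trimmed mean of 500.0, and 3 zeros were raised to 0.1. None of the later GeneSpring steps of the methods had been applied to them. From the deposited intensities, log2 values were shifted to the mean 75th percentile of the arrays, and 64 control probe sets were left out. Signals in the text are shifted values, on a linear scale.

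The members and gene lists were chosen with earlier results of these data known. The member rule was applied as stated in the report, and 2 plastid-encoded probe sets that met its values were left out. Contrasts were fitted with limma 3.58.1 in R 4.3.3 on 15436 probe sets with at least 1 of 9 arrays at or above its 40th percentile, with all lines in 1 fit, and adjusted by Benjamini-Hochberg. The scripts were tested on simulated data. All members may be named. Values in every array are given for members in the gene lists, for the 10 lowest and for those not above background, and at most 4 other genes a list are named, those called between CAB3::pBVR2 and No-0 WT first, from the lowest difference up, and then the others in that order.

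A gene with several probe sets was read from the brightest one. The platform table gave 1 gene for 13513 probe sets, 13484 of them matched in RefSeq (TAIR10.1), and several for 503. The study's supplementary gene list, chosen on these arrays, named 376 more, and those were left out of the tested lists. Of the members, 16 were named by the platform table and 15 by that list alone. RefSeq order gave neighbours and no coordinates are printed, since the files name no build.

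The labels give replicate numbers without saying what they share. Deviations from the line means correlated at 0.207 to 0.391 in the 9 same-numbered pairs and at -0.263 to -0.051 in the 18 others. The numbers were therefore taken to pair the arrays, from the data and not from the labels. This pairing was used for the held-out reading and for the replicate block. All other standard errors, intervals and p-values come from fits without that block, so the pairing does not enter them. Where nothing says that replicates are separate cultures, p-values measure only the spread between these arrays, and 3 arrays per line limit the precision. Alternatives were other scalings, filters, limits of the rule, a replicate block, an unmoderated contrast and leaving out each array.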

Additional observations from a re-analysis of the deposited data

How the results depend on the processing

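The number of probe sets that met the rule was 35 as reported. It was 18 with 35S::pBVR3 held within 0.25 of No-0 WT, 84 within 0.5, 53 with a limit on CAB3::pBVR2 that was 0.25 shallower and 10 with one 0.5 deeper. Under the other scalings, signal limits and with overlap allowed it was within 1.5 times of 35, but not always with the same probe sets: 31 of the 35 members were kept by a median shift, 23 by quantile normalization, 21 with no shift and 33 with values raised to the background. Leaving out 1 array gave 32 to 52 probe sets and kept 22 to 31 members, and 5 members met the rule in every such run (AT3G62550, PIFI, TI2, AT1G78450 and KCS12). In at least 1 scaling or run without 1 array, 22 of 35 members were more than 0.35 below No-0 WT in 35S::pBVR3, while CAB3::pBVR2 stayed at -0.99 or lower for every member. With no shift the median of all kept probe sets for CAB3::pBVR2 minus No-0 WT was 0.17 and that of the members -1.57. Members under 0 in 35S::pBVR3 numbered 32 of 35 as reported, 32 under a median shift, 27 under quantile normalization and 28 with no shift.

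The held-out share was 67.2% as reported, 61.4% under a median shift and 70.2% under quantile normalization. For 35S::pBVR3 against No-0 WT the lower probe sets numbered 817 as reported, 1323 with the replicate block, 125 with no filter and 114 to 736 without 1 array. Their number without replicate 1, 2 or 3 of 35S::pBVR3 was 249, 314 or 218, and without replicate 1, 2 or 3 of No-0 WT it was 201, 114 or 443; the lower number of arrays is part of that setting. Probe sets lower in CAB3::pBVR2 numbered 3112, and 2519 to 3055 without 1 array. Listed genes outside the members lower in CAB3::pBVR2 numbered 32, 34 with the replicate block and 31 to 34 without 1 array. Of 978 values of named listed genes under the alternatives, 118 lost their call, 16 gained one, and no called value changed direction. The 978 include values of contrasts that had no call to lose, as 15 of 33 genes were called in 35S::pBVR3 and 30 of 33 in CAB3::pBVR2. Of these, 13 calls in 35S::pBVR3 and 4 in CAB3::pBVR2 were lost in at least 1 alternative. The replicate block changed no other call among those named than the ones given beside their values, those of AT1G29070, lower in 35S::pBVR3 with it (adjusted p = 0.0433), and WES1, higher in 35S::pBVR3 with it (adjusted p = 0.0453). The causes were not tested.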
